A study of Mus musculus with 15 samples.

Results

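Red cell and platelet transcripts were followed across 15 microarrays of mouse lung, through 8 genes chosen by name for what they make in blood. The choice was made with earlier results of these data known, so counts over these genes are descriptions. Alas2, Slc4a1, Hba-a1 and Hbb-b1 stood for the red cell line, and Ppbp, Pf4, Gp9 and Gp5 for the megakaryocyte and platelet line. Every probe set annotated to a single member was taken, and for the globins also every probe set shared with a sister globin gene. This gave 13 probe sets of the 45037 on the array outside its controls, of which 4 were shared globin probe sets. A probe set entered the tests when its mean signal over the 15 arrays was above 100, and 11 of the 13 did so, with at least 1 for each of the 8 genes. The remaining pair, the dimmest Slc4a1 probe set and the only probe set given to Hba-a1 alone, never went above 17.2 and 23.9 on any array.

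The study compared lung dysplasia of SP-C/c-raf mice, unaltered lung tissue of SP-C/c-raf mice (transgenic) and lung of mice without the transgene (non-transgenic), with 5 arrays each. The SP-C promoter directs the c-raf kinase to the respiratory epithelium, so blood cells themselves were not the target of the transgene. The line had been bred to C57BL/6 for at least 5 generations, starting from hybrids with DBA/2, and all tissue was cut out by laser microdissection. Dysplasia and transgenic samples came from mice of 5 to 7 months and non-transgenic samples from mice of 7 to 10 months, so that age and genotype cannot be told apart in comparisons with the non-transgenic group. Sex was uneven as well, since Xist, the RNA of the inactive X, was above 1000 on 2 of 5 dysplasia, 1 of 5 transgenic and 4 of 5 non-transgenic arrays. The labels do not say which arrays came from the same mouse. The arrays numbered 4 did not, with an Xist signal of 9674 for dysplasia 4 and 85.0 for transgenic 4, so that equal numbers do not always mark a mouse, and p-values measure the spread between these samples. For the array called transgenic 2, the title gives unaltered transgenic tissue but another label gives tumor. Leaving it out kept the same 7 member probe sets called lower in dysplasia.

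Red cells carry oxygen on haemoglobin, a tetramer of alpha globin (Hba genes) and beta globin (Hbb genes) around heme. Alas2 is the erythroid form of the enzyme that opens heme synthesis, and Slc4a1 encodes band 3, the anion exchanger that fills the red cell membrane. Mature red cells of mammals have lost the nucleus but reticulocytes, the youngest cells in blood, still hold globin RNA. Platelets are shed by megakaryocytes and keep part of their RNA. Ppbp and Pf4 encode CXC chemokines stored in platelet alpha granules, while Gp9 and Gp5 are subunits of the glycoprotein Ib-IX-V complex, the receptor through which platelets catch von Willebrand factor. The lung is among the tissues richest in capillaries, and megakaryocytes are known to release platelets in the mouse lung.

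RefSeq windows of the 250 bases before a transcript start (build GRCm38.p6) were at hand for 6 of the 8 members, the exceptions being Slc4a1 and Hbb-b1. That of Gp9 lies inside the annotated span of the gene and is not shown. They were searched on both strands for AGATAA and TGATAA, the letters of the GATA factors that drive both blood lines, which were present in 16.6% of all 32851 mouse windows of that length. Those of the remaining members, and of the beta globins under the shared probe set, are shown here, with the match in capitals, written TTATCT where it lies on the opposite strand. For the red cell genes these are Alas2 (chrX:150547167-150547416, plus strand), Hba-a1 (chr11:32283422-32283671, plus strand) with Hbb-bs (chr7:103827929-103828178, minus strand) and Hbb-bt (chr7:103813924-103814173, minus strand).
Alas2: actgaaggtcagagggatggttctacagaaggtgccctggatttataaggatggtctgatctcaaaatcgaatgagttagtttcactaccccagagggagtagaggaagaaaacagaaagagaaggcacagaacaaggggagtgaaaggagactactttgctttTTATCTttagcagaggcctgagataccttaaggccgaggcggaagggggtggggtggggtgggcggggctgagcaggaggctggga
Hba-a1: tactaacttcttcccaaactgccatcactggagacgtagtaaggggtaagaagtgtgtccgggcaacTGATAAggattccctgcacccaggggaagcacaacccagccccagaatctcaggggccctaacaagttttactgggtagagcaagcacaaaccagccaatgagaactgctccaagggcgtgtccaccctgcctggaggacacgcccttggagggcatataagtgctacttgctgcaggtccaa
Hbb-bs: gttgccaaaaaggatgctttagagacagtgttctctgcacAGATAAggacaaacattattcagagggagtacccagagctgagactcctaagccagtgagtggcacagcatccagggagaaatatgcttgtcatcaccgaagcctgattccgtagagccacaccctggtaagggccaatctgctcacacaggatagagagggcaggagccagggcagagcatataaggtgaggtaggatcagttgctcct
Hbb-bt: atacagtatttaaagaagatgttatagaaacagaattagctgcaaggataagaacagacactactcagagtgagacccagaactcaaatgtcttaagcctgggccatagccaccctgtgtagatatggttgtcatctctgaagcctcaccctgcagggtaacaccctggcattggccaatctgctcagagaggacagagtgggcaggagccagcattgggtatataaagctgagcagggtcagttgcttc
For the platelet genes they are Gp5 (chr16:30310782-30311031, minus strand) and the neighbours Ppbp (chr5:90768268-90768517, plus strand) and Pf4 (chr5:90772185-90772434, plus strand).
Gp5: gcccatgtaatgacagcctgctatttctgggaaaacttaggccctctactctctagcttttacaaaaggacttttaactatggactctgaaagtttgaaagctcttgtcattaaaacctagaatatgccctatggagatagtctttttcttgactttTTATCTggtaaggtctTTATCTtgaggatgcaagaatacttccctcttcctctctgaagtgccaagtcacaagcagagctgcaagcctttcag
Ppbp: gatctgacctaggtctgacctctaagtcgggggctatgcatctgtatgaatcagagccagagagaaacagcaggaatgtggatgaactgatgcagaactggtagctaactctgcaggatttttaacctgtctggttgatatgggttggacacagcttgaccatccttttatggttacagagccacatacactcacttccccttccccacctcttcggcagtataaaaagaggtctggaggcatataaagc
Pf4: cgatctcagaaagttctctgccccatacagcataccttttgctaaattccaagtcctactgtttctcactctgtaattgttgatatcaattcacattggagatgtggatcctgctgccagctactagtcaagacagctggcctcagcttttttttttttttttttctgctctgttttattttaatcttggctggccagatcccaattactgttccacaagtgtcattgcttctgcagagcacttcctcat
Alas2 held 1 match at positions -86 to -81 from the start, Hba-a1 1 at -183 to -178, Hbb-bs 1 at -210 to -205 and Gp5 2 at -93 to -88 and -77 to -72. Hbb-bt, Ppbp, Pf4 and Gp9 held none in these windows. The Ets letters AGGAAG, found in 29.5% of all windows, were present in those of Alas2, Pf4, Gp9 and Gp5 and not in those of Ppbp, Hba-a1, Hbb-bs or Hbb-bt. The Klf letters CCACACCC, in 3.2% of all windows, were found in that of Hbb-bs alone among these. The shorter form CACCC, which lies inside the longer, was found in 52.0% of all windows and in those of Alas2, Hba-a1, Hbb-bs, Hbb-bt and Gp9.

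Values are GCOS signals, the scanner software's linear summary of each probe set, scaled by the authors to a target of 500, and changes are differences of log2(signal + 50). Mean signals per array lay between 692 and 775. Actin 5′ to 3′ ratios, a sign of RNA length, had medians of 57.1% in dysplasia, against 38.9% in transgenic and 31.0% in non-transgenic samples, with overlapping ranges. The labelled tissue was checked with Epcam, the epithelial adhesion molecule, which averaged 7515 ± 920 in dysplasia, against 2465 ± 277 in transgenic and 1563 ± 140 in non-transgenic lung (SD, n = 5 each). The paper, which used another test and other limits, states that it saw no rise of this transcript in dysplasia. Of 8 tested lung epithelial markers, 3 were higher in dysplasia than in transgenic lung and 5 gave no call. Against non-transgenic lung 4 were higher and 4 gave no call. Over all probe sets tested, 15.3% and 20.7% were higher in these comparisons. All 20 endothelial markers were lower in dysplasia than in transgenic lung, and their summed signal lay between 31566 and 46204 in dysplasia, 92411 and 123035 in transgenic and 105980.0 and 136144 in non-transgenic samples. Endothelial marker signal was thus lower in every dysplasia sample than in any other, and its part in the results on blood cell genes was not tested. None of the sources used here says whether the lungs were perfused. In such mixed tissue, with signals scaled to a target of 500, fewer blood cells, less RNA per cell and more RNA from other cells cannot be told apart.

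Of the 8 genes, each read through its brightest probe set, 5 were lower in dysplasia than in transgenic lung, namely Alas2, Slc4a1, Ppbp, Gp9 and Gp5 (limma, adjusted p under 0.05). Hba-a1, Hbb-b1 and Pf4 gave no call, and no member was higher. Over all 21658 probe sets tested, 17.9% were called lower in this comparison and 15.3% higher, with a median change of -0.0082. The same 5 genes were lower in dysplasia than in non-transgenic lung, where 23.3% of all probe sets tested were called lower and 20.7% higher. Among the 11 tested probe sets, 7 were called lower in each comparison, and the 5 dysplasia arrays all lay below the 5 arrays of the other group for 7 of the 11. All dysplasia arrays lay below all transgenic arrays for 13.6% of the probe sets tested, and below all non-transgenic arrays for 17.5%. With the dimmest tested alpha globin probe set in place of the brightest, a choice added after the data were seen, 6 of the 8 genes were lower in each. Both comparisons share the dysplasia arrays.

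**Figure D1:**
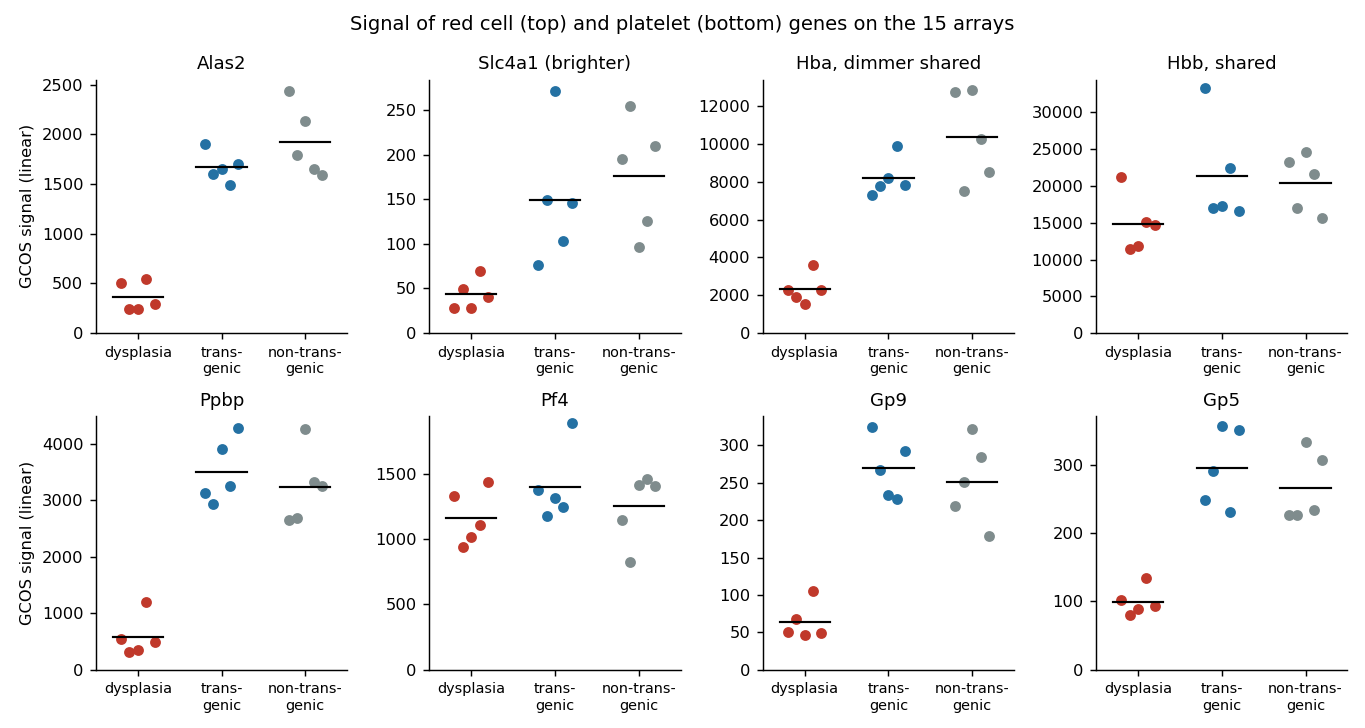
GCOS signal on a linear axis for 8 probe sets, red cell genes in the top row and platelet genes in the bottom row. Each point is an array (replicates 1 to 5 from left to right in a group) and the line is the group mean. The dysplasia points lie below all others for Alas2, Slc4a1, the dimmer Hba probe set, Ppbp, Gp9 and Gp5, with 4 of 5 doing so for Hbb, and lie among the others for Pf4.

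Alas2 (chrX:150547417-150570622) showed the largest change of the red cell members with the offset of 50. Its signals were 503, 246, 239, 539.5 and 293 in dysplasia, against 1905, 1601, 1653, 1493 and 1702 in transgenic lung and 2440.0, 1794, 2136, 1652 and 1594 in non-transgenic lung. The highest dysplasia array thus lay well under the lowest array of either other group, which overlapped each other. The log2 change was -2.12 (SE 0.21, limma adjusted p = 2.32e-05) against transgenic and -2.30 (adjusted p = 1.03e-05) against non-transgenic lung. The mean of dysplasia was 21.8% of that of transgenic lung. Over all alternatives of processing, the change against transgenic lung stayed between -2.30 and -2.01. Alas2 lies on the X chromosome, and the call held with Xist as a covariate.

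Slc4a1 (chr11:102348820-102365281) was much dimmer, and both of its tested probe sets were lower in dysplasia. The brighter read 27.9, 49.8, 27.8, 69.9 and 40.9 in dysplasia, against 76.3, 149, 272, 104 and 146 in transgenic and 195, 254, 96.6, 126 and 210.0 in non-transgenic lung. The other averaged 36.2 ± 18.4 in dysplasia, against 141 ± 36.2 in transgenic and 186 ± 68.8 in non-transgenic lung (SD, n = 5 each). Neither overlapped between dysplasia and the other groups, although the brighter came close, at 69.9 for the highest dysplasia array and 76.3 for the lowest transgenic array. The log2 changes were -1.04 (SE 0.23, adjusted p = 0.0043) and -1.15 (SE 0.18, adjusted p = 0.000478) against transgenic, and -1.25 and -1.43 against non-transgenic lung (limma). Signals in dysplasia went down to 11.8, so the size of the change depended on the offset of 50, and the probe sets entered the tests through the other groups. A fit with no limit on signal kept both calls. After removal of the group means, the pair of probe sets correlated at 0.03 over the 15 arrays, so within groups they did not follow each other.

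The alpha globin transcripts, whose genes lie on chromosome 11 (Hba-a1 at chr11:32283672-32284486), gave different answers by probe set. All 3 probe sets with signal are annotated to both Hba-a1 and Hba-a2, so the sister genes could not be told apart. The dimmest of them read 2265, 1921, 1523, 3606 and 2281 in dysplasia, against 7287, 7797, 8219, 9876 and 7849 in transgenic and 12763, 7489, 12822, 10250.5 and 8535 in non-transgenic lung. Dysplasia was far below both other groups here, with log2 changes of -1.85 (SE 0.19, adjusted p = 3.35e-05) against transgenic and -2.16 (adjusted p = 1.72e-05) against non-transgenic lung (limma). The brightest read 29684, 14158, 15058, 16788 and 18507 in dysplasia, against 34148, 16653, 15626, 21199 and 15664 in transgenic and 21966, 16013, 23352, 21229 and 14475 in non-transgenic lung. Here the groups overlapped throughout, and the log2 change of -0.12 against transgenic lung had a 95% interval of -0.67 to 0.44 (adjusted p = 0.779). Against non-transgenic lung it was -0.07 (interval -0.53 to 0.39), and in both comparisons its sign turned under some alternatives, with no call there.

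The intermediate alpha globin probe set averaged 16459 ± 4537 in dysplasia, against 20302 ± 6094 in transgenic and 19364 ± 3968 in non-transgenic lung (SD, n = 5 each). Its log2 changes of -0.30 and -0.25 against transgenic and non-transgenic lung were not called (adjusted p = 0.335 and 0.334). With the array number as a block the change against transgenic lung was called (adjusted p = 0.0144, and 0.0462 with both arrays numbered 4 left out). Quantile normalization also gave a call in both comparisons (adjusted p = 0.0287 and 0.0392).

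The beta globin probe set is shared by Hbb-b1, Hbb-b2, Hbb-bs and Hbb-bt. Of these, Hbb-bs (chr7:103826523-103827928) and Hbb-bt (chr7:103812524-103813923) have positions in the build used. The probe set read 21262, 11424, 11905, 15129 and 14759 in dysplasia, against 33356, 17011, 17274, 22429 and 16531 in transgenic and 23308, 17003, 24665, 21579 and 15703 in non-transgenic lung. In dysplasia 4 of 5 arrays lay below every array of the other groups, and dysplasia 1 lay among them. The log2 change was -0.50 (interval -0.99 to -0.01, adjusted p = 0.115) against transgenic and -0.47 (interval -0.88 to -0.06, adjusted p = 0.0616) against non-transgenic lung (limma), neither called. Without dysplasia 1 it was called in both comparisons (-0.63, adjusted p = 0.0438, and -0.61, adjusted p = 0.012), and without non-transgenic 5 against non-transgenic lung (adjusted p = 0.0359). With the array number as a block, the change against transgenic lung was called (adjusted p = 0.00181, and 0.00755 with both arrays numbered 4 left out), and quantile normalization gave calls in both (-0.57 and -0.56, adjusted p = 0.00509 and 0.0031).

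The 3 bright globin probe sets stood near the top of every array, the brightest alpha globin probe set ranking between 8 and 241 of 45037. Their signals moved with the bright end of the array. Over the 15 arrays, the Pearson correlation with the mean of the 50 brightest probe sets that are no globin was 0.93 for the brightest alpha globin probe set, 0.86 for the intermediate and 0.73 for beta globin, against 0.03 for the dimmer alpha globin probe set. These correlations are descriptions, since the arrays share their scaling and some may share a mouse. Dysplasia 1 and transgenic 1, where that mean was 29557 and 29340.4, also gave the highest signals of the 2 brighter alpha globin probe sets. With that mean as a covariate, added after the data were seen, beta globin was called lower in dysplasia than in transgenic (-0.53, adjusted p = 0.00338) and in non-transgenic lung (-0.50, adjusted p = 0.00343). The intermediate alpha globin probe set was called as well (-0.33 and -0.27, adjusted p = 0.0217 and 0.0442), and the brightest was not (-0.16 and -0.10, adjusted p = 0.248 and 0.431).

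**Figure D2:**
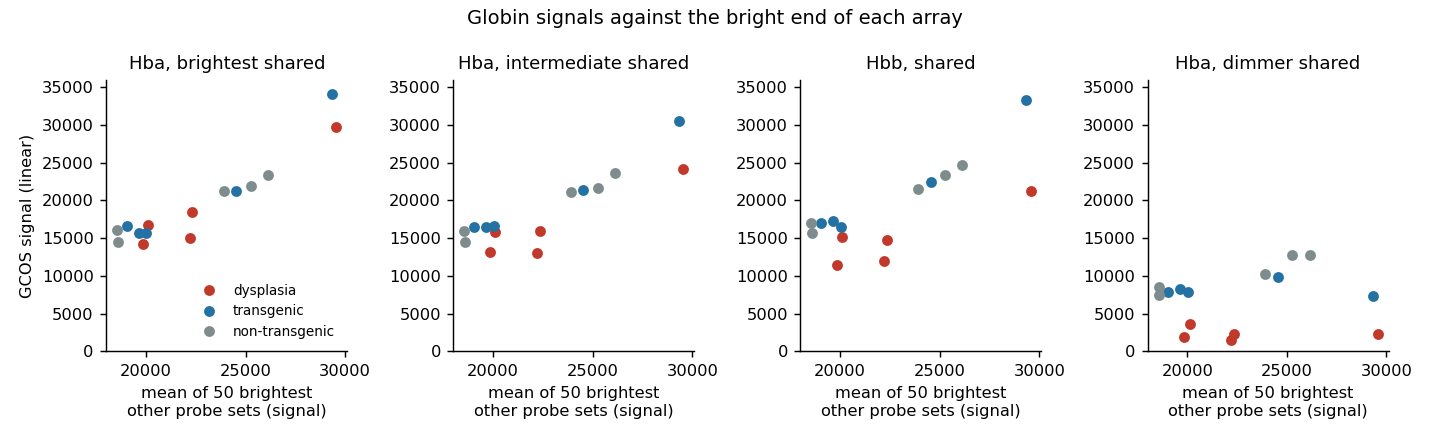
Signal of the 4 tested globin probe sets (vertical axis, linear) against the mean signal of the 50 brightest other probe sets of the same array (horizontal axis, linear), with a point for each of the 15 arrays, coloured by group. The first 3 panels climb with the bright end of the array, with correlations of 0.93, 0.86 and 0.73, while the dimmer alpha globin probe set does not (0.03) and keeps dysplasia apart.

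Ppbp (chr5:90768518-90770063), the platelet basic protein gene, had the largest change of all members. Its signals were 536, 316, 354, 1192 and 487 in dysplasia, against 3128, 2932, 3899, 3241 and 4281 in transgenic and 2652, 2684, 4262, 3319 and 3254 in non-transgenic lung. Even dysplasia 4, at 1192, lay below the lowest other array. The log2 change of -2.63 (SE 0.29, limma adjusted p = 4.23e-05) against transgenic lung was the 7th lowest of the 21658 probe sets tested. Against non-transgenic lung it was -2.52 (SE 0.29, adjusted p = 3.92e-05). On the linear scale, the mean of dysplasia was 16.5% of that of transgenic and 17.8% of that of non-transgenic lung.

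Pf4 (chr5:90772435-90773383), platelet factor 4, lies 2371 bases beyond the end of Ppbp, with no other gene starting between them. Its signals were 1328, 944, 1018, 1106 and 1435 in dysplasia, against 1374, 1178, 1318, 1245 and 1888 in transgenic and 1149, 824, 1417, 1464 and 1411 in non-transgenic lung. The groups overlapped in each comparison. The log2 change was -0.25 against transgenic (interval -0.58 to 0.08, adjusted p = 0.244) and -0.09 against non-transgenic lung (interval -0.46 to 0.29, adjusted p = 0.721), neither called by limma. With the array number as a block, the change against transgenic lung was called (-0.25, adjusted p = 0.0282, and -0.27, adjusted p = 0.043, with both arrays numbered 4 left out). In the mouse, Pf4 is also known from macrophages, and the summed signal of 11 macrophage markers lay between 30837 and 36744 in dysplasia, 40749 and 48331 in transgenic and 29598 and 42342 in non-transgenic samples. Of these 11 markers, 8 were lower and 2 higher in dysplasia than in transgenic lung, and 3 were lower and 3 higher than in non-transgenic lung. Over all probe sets tested, 17.9% were lower and 15.3% higher in the first comparison, and 23.3% and 20.7% in the second. The part of the macrophage markers in the Pf4 signal was not tested.

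The 2 neighbouring chemokine genes thus changed by different amounts. The log2 change of Ppbp minus that of Pf4 was -2.38 against transgenic and -2.43 against non-transgenic lung (exact permutation, two-sided p = 0.00794 for each), and the dysplasia arrays did not overlap with the others on this difference. Between transgenic and non-transgenic lung the difference was -0.05 (exact p = 0.714). Gp9 and Gp5 also changed more than Pf4, with differences of -1.25 and -0.95 against transgenic and of -1.32 and -0.99 against non-transgenic lung (exact p = 0.00794 for each). In all, 5 pairs of member probe sets were computed, each chosen after the values had been seen, and the 2 with a globin at the bright end of the arrays are not given. The smallest p that 5 arrays against 5 allow is 0.00794. An offset of 16 gave the same calls. Of the other CXC chemokine genes of this cluster, 2 of 5 were bright enough to test. Cxcl1, a neutrophil attractant, was higher in dysplasia by 1.14 against transgenic and 1.05 against non-transgenic lung. Cxcl15, the lung chemokine lungkine, averaged 21614 in dysplasia, against 20269 in transgenic and 19604 in non-transgenic lung and was not called.

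Gp9 (chr6:87776131-87779786) and Gp5 (chr16:30307685-30310781) encode parts of the same receptor and were both lower in dysplasia. Gp9 read 50.7, 68.4, 46.5, 105 and 49.4 in dysplasia, against 325, 267, 234, 228 and 292 in transgenic and 219.6, 251, 322, 284 and 179 in non-transgenic lung. Gp5 read 102, 79.5, 89.2, 135 and 93.1 in dysplasia, against 249, 291, 357, 231 and 352 in transgenic and 226, 227, 334, 233 and 308 in non-transgenic lung. For each gene the 5 dysplasia arrays were the 5 lowest of the 15, and dysplasia 4 was the highest of them, as it was for Alas2 and Ppbp. The log2 change was -1.50 (SE 0.15, adjusted p = 2.34e-05) for Gp9 and -1.20 (SE 0.14, adjusted p = 5.87e-05) for Gp5 against transgenic lung, and -1.40 and -1.07 against non-transgenic lung (adjusted p = 4.07e-05 and 6.03e-05, limma). Without the offset the change of Gp9 was -2.13 and -2.01, and that of Gp5 -1.57 and -1.42. Both genes averaged under 100 in dysplasia (64.1 and 99.7) and entered the tests through the other groups.

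**Figure D3:**
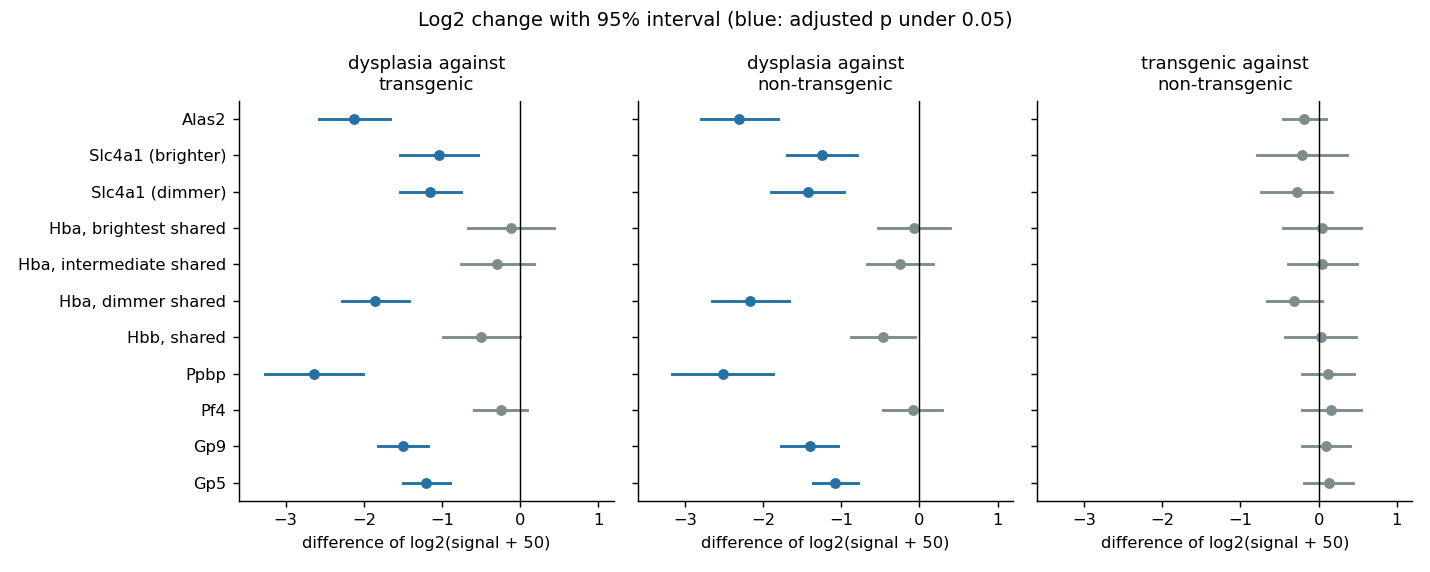
Change of each tested member probe set as the difference of log2(signal + 50), with its 95% interval from limma, for dysplasia against transgenic, dysplasia against non-transgenic and transgenic against non-transgenic lung. Blue marks an adjusted p under 0.05, which 7 of 11 probe sets reached in both comparisons of dysplasia and none in the third.

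Unaltered tissue of transgenic lung, which the methods place in mice that also bore dysplasia, did not differ detectably from non-transgenic lung in these transcripts. The log2 changes of the 11 tested probe sets lay between -0.31 and 0.16, with adjusted p between 0.478 and 0.986 (limma), and 0 of 11 had an unadjusted p under 0.05. Over the whole array 0.0831% of probe sets were called lower and 1.17% higher in this comparison. The 95% interval of the brightest alpha globin probe set, -0.45 to 0.54, was wide enough to hold moderate changes. Others reached further down, at -0.78 to 0.37 and -0.73 to 0.17 for Slc4a1 and -0.66 to 0.04 for the dimmer alpha globin probe set.

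The platelet genes outside the members gave a broader view. Of 37 genes listed, 33 had a probe set of their own and 24 were bright enough to test. Over all probe sets tested, 17.9% were lower and 15.3% higher against transgenic lung, and 23.3% and 20.7% against non-transgenic lung. Against transgenic lung, 19 of the 24 were lower in dysplasia, 1 was higher and 4 were not called, with a median log2 change of -1.24. Against non-transgenic lung, 20 were lower and 2 higher, with a median of -1.09, while between transgenic and non-transgenic lung no gene of the list was called (limma, median 0.13). Tubb1, the beta tubulin of the platelet's marginal band, averaged 204 ± 64.7 in dysplasia, against 1304 ± 357 in transgenic and 1066 ± 267 in non-transgenic lung (SD, n = 5 each), log2 changes of -2.41 and -2.14. Gp1bb, another subunit of the glycoprotein Ib-IX-V complex, averaged 67.4 ± 20.8 in dysplasia, against 339 ± 57.2 in transgenic and 290.1 ± 50.1 in non-transgenic lung, changes of -1.73 and -1.54. Gp1bb, like Gp9 and Gp5, averaged under 100 in dysplasia and entered the tests through the other groups. Alox12, Treml1 and F5, named here for their low signal and called lower against transgenic lung, did so as well. They averaged 80.7, 72.4 and 45.0 in dysplasia, against 299, 201 and 206 in transgenic lung. Mmrn1, not called in that comparison, averaged 68.9 in dysplasia, against 205 in transgenic lung. With no limit on signal, 21 of the 33 genes were lower and 1 higher against transgenic lung, and 22 lower and 2 higher against non-transgenic lung. The shares above hold for the limit of 100 and cannot be set beside these counts. Shares with no limit are not given.

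Clec1b, the platelet receptor for podoplanin, was lower, with log2 changes of -1.45 and -1.02 against transgenic and non-transgenic lung, and so was Nfe2, a transcription factor of late megakaryocytes, with -1.41 and -1.36. Itgb3, the beta chain of the platelet fibrinogen receptor, changed by -1.38 and -1.34, Gng11, a G protein gamma subunit, by -1.54 and -1.76, and Vwf by -1.61 and -1.82. Vwf is also made by endothelium, whose markers fell in the same samples, as given above. The part of other cells in the counts over this list was not tested. Thbs1, thrombospondin 1, named here for standing apart from its list, was higher in dysplasia by 0.99 and 1.12, and its call against transgenic lung was lost when dysplasia 1, 2 or 3 was left out. Cd9, a tetraspanin of many cell types, was called higher against non-transgenic lung (0.60) and not called against transgenic lung (0.25). The 2 higher calls against non-transgenic lung became 1 when dysplasia 1, 2 or 3 or non-transgenic 3, 4 or 5 was left out.

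**Figure D4:**
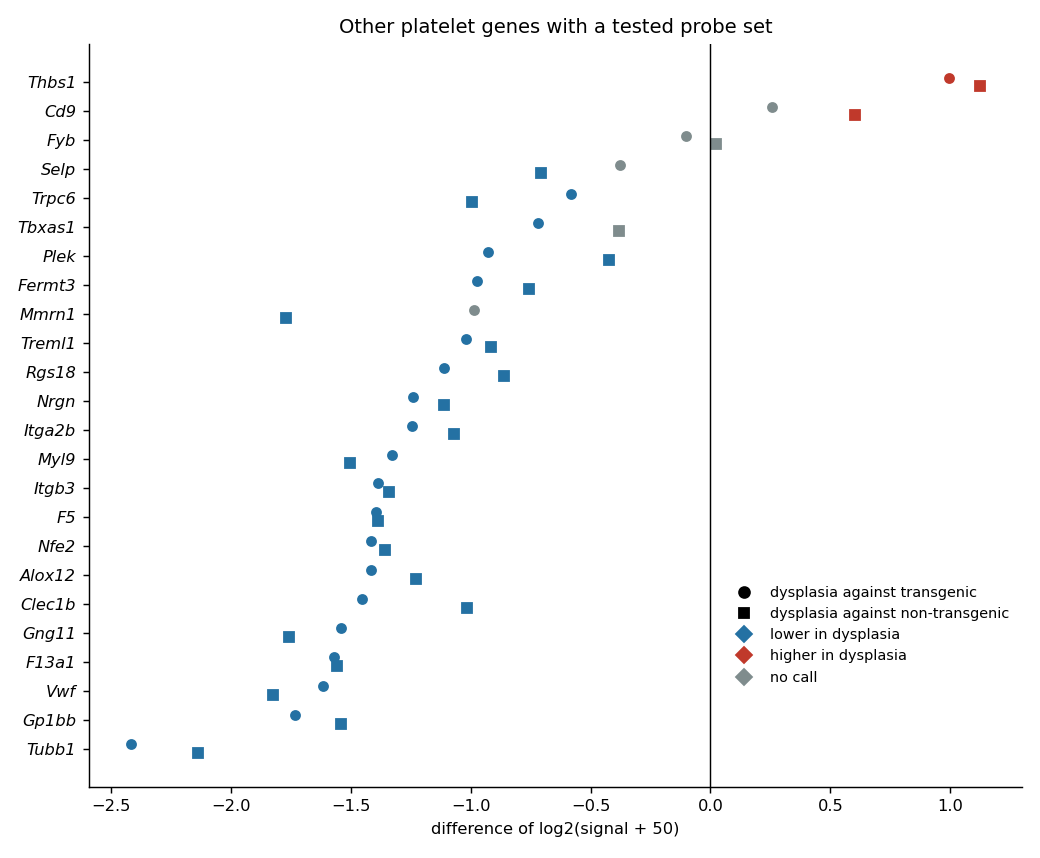
Change of the 24 tested platelet genes outside the members, as the difference of log2(signal + 50), for dysplasia against transgenic (circles) and against non-transgenic lung (squares). Blue marks genes called lower, red those called higher and grey no call. Most genes lie left of 0, with medians of -1.24 and -1.09, and Tubb1 lies lowest.

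Those red cell genes outside the members that could be tested were called in both directions. Of 37 listed, 28 had a probe set of their own, and 9 were bright enough to test. Klf1, Hemgn, Rhag, Kel and Epb42 were among those too dim, at mean signals of 18.5, 16.2, 8.98, 22.1 and 26.9. The calls therefore do not cover them. In dysplasia 3 were lower and 3 higher than in transgenic lung, with a median of 0.15, and 3 were lower and 3 higher than in non-transgenic lung, with a median of 0.21. Over all probe sets tested, 17.9% were lower and 15.3% higher in the first comparison, and 23.3% and 20.7% in the second. Tal1, a transcription factor of blood and endothelial cells, averaged 324 ± 61.1 in dysplasia, against 886 ± 164 in transgenic and 1065 ± 101 in non-transgenic lung (SD, n = 5 each), changes of -1.32 and -1.58. Nxpe2 was lower too, with changes of -0.76 and -0.96. It averaged 47.9 in dysplasia, against 116 in transgenic and 140 in non-transgenic lung, and entered the tests through the other groups. Slc25a37, the mitochondrial iron importer mitoferrin 1, was higher in dysplasia, at 2295 ± 199 against 951 ± 157 in transgenic and 1001 ± 153 in non-transgenic lung, changes of 1.24 and 1.17. Ank1, the ankyrin that ties band 3 to the red cell skeleton, was higher by 1.04 and 1.01. To complete the counts, Bpgm, which makes the allosteric effector of haemoglobin, was lower in both comparisons (-0.42 and -0.55), Car2, a carbonic anhydrase of many tissues, was called higher against transgenic lung (0.27), and Tfrc, the transferrin receptor of growing cells, was called higher against non-transgenic lung (0.94). With no limit on signal, 7 of the 28 genes were lower in dysplasia in each comparison. At that setting 2 were higher against transgenic lung and 3 against non-transgenic lung. The share over all probe sets at that setting is not given, so these counts cannot be set beside it.

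The other enzymes of heme synthesis were called in both directions. Of 7 tested enzymes outside Alas2, 1 was lower and 3 higher in dysplasia than in transgenic lung (median 0.39), and 1 was lower and 2 higher than in non-transgenic lung (median 0.17). The lower calls, 1 of 7 in each comparison, stood beside 17.9% and 23.3% over all probe sets tested, and the higher calls, 3 and 2 of 7, beside 15.3% and 20.7%. Alad, the next enzyme of the pathway, was higher by 0.93 and 1.26, and Alas1, the form of the first enzyme used in all tissues, averaged 3930.0 ± 975 in dysplasia, against 2705 ± 337 in transgenic and 2195 ± 171 in non-transgenic lung, changes of 0.50 and 0.79. Fech, which puts the iron into heme, was lower, with changes of -0.44 and -0.45. Uros, a later enzyme of the pathway, was higher by 0.39 against transgenic lung and not called against non-transgenic lung (0.29). Of the 3 calls against transgenic lung, 1 was left when dysplasia 1 or 3, or transgenic 2, 4 or 5, was left out.

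Markers of white cells, which share the vessels with red cells and platelets, were taken alongside. Against transgenic lung, 4 of 5 tested B cell markers, 3 of 4 NK cell markers and 4 of 6 neutrophil markers were lower in dysplasia, with medians of -0.87, -0.77 and -1.04, and 1 neutrophil marker, Lcn2, was higher (0.59). The 5 tested T cell markers, at a median of -0.12, were not called by limma. Against non-transgenic lung, 5 of 5 B cell, 4 of 4 NK cell, 4 of 6 neutrophil and 1 of 5 T cell markers were lower, and Lcn2 was higher (1.69). The T cell count was 3 with the replicate block and 0 with Xist as a covariate. The summed B cell signal lay between 1631 and 2922 in dysplasia, against 3050.3 to 4807 in transgenic and 3586 to 5027 in non-transgenic samples. For these counts, the shares over all probe sets tested were 17.9% lower and 15.3% higher against transgenic lung. Against non-transgenic lung they were 23.3% and 20.7%. Whether the lists differed from each other was not tested.

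The genes whose signals ran most like those of the members differed between members. With the group means kept, over 15 arrays, Gp9 was most like Gp1bb (Pearson r = 0.97) and Gp5 most like Tubb1 (0.98), while Alas2 was most like Plpp1 (0.99), a lipid phosphatase, and Ppbp most like Vegfd (0.99), a vascular growth factor. After removal of the group means, the most alike was Gpld1 for Alas2 (0.90), Art3 for Ppbp (0.96), Jam3 for Gp9 (0.79), Maf for Gp5 (0.86), Cryl1 for Pf4 (0.90) and Pcdhb17 for Slc4a1 (0.83). The brightest alpha globin probe set ran most like Sftpc (0.98), Lyz2 (0.98) and Ager (0.98), which mark alveolar epithelium and macrophages, and beta globin most like Hopx (0.99). Sftpc averaged 20371 ± 7132 in dysplasia, against 22086 ± 8193 in transgenic and 21424 ± 4179 in non-transgenic lung (SD, n = 5 each), at the same bright end of the arrays. Among the members themselves, after removal of the group means, Ppbp ran with Gp5 (0.76), with the dimmer alpha globin probe set (0.72) and with Alas2 (0.65), and with Pf4 at 0.41. The order was different by rank, with a Spearman correlation of 0.79 for Gp5, 0.71 for Pf4, 0.57 for the dimmer alpha globin probe set and 0.49 for Alas2. These are descriptions over 15 arrays that share their scaling, and the group means had been estimated from the same arrays.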

How the data were processed

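Lung tissue was hybridised to Affymetrix mouse 430 2.0 arrays, 5 per group. The deposited values are intensity signals on a linear scale, made by the authors with GCOS and scaled to a target of 500 (version not given in the sources used here). No per-sample column was left without a sample (0 columns). After removal of 64 control probe sets, 45037 remained, 34945 with a single gene symbol, 932 with several and 9160 with none in the platform annotation, and 34741 of the single symbols were matched to RefSeq (GRCm38.p6). Log2(signal + 50) was tested with limma 3.58.1 (R 4.3.3) between 2 groups at a time, without pairing as in the methods, over 21658 probe sets with a mean signal above 100, with Benjamini-Hochberg adjustment. The methods' SAM was not run. Differences between pairs of probe sets were tested by exact permutation over 252 splits (Python 3.11.15, scipy 1.17.1).

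All members were described with each of their probe sets. In each list up to 4 genes with the smallest p were named per comparison, and for each member the genes with the highest Pearson r. Where a gene had several probe sets, its brightest by mean over the 15 arrays counted. Members, lists and pairs were chosen with earlier results of these data known. Arrays with the same number deviated together: the mean correlation of their deviations from the group means was 0.61 between dysplasia and transgenic (lowest 0.22, above 0.1 in 5 of 5) and 0.45 between transgenic and non-transgenic samples (lowest 0.14, 5 of 5), but above 0.1 in only 4 of 5 between dysplasia and non-transgenic samples. The methods state that dysplasia and unaltered tissue came from the same mice, but no source used here says that the number marks the mouse, and Xist differed between the arrays numbered 4 (9674 in dysplasia, 85.0 in transgenic), so that those came from different mice. The offset, scaling, signal limit, fit, block, Xist, actin ratio and single arrays were varied. The limma steps were tested on simulated data. The number of arrays limits the precision.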

Additional observations from a re-analysis of the deposited data

Results flagged for a closer look

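In 4 of 33 groups of 5 member signals tested, a single array stood apart from the other 4 by more than Dixon's 95% limit, which chance does in about 1 of 20 groups. The brightest alpha globin probe set read 29684 on dysplasia 1, with 18507 as the next highest of its group. The intermediate alpha globin probe set read 24185 on the same array, with 15990.2 as the next highest, and the mean of the 50 brightest other probe sets was also highest there, at 29557. Ppbp read 1192 on dysplasia 4, with 536 as the next highest. Pf4 read 1888 on transgenic 5, with 1374 as the next highest. These 4 values lay on 3 arrays.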

How the results depend on the processing

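Across the alternatives, no called member probe set lost its call and none reversed. Of the member values tested under each alternative, 239 against transgenic lung, 229 against non-transgenic lung and 239 between transgenic and non-transgenic lung kept their side of the threshold, and 11, 10 and 0 gained a call. All gains were of Hbb, the intermediate Hba probe set or Pf4. A signal limit of 200 left 3 member genes and 4 member probe sets called lower in both comparisons of dysplasia, since fewer were then tested. With the array number as a replicate block, Hbb was also called against non-transgenic lung (adjusted p = 0.0284), 5072 probe sets were higher in dysplasia than in transgenic lung (3321 without the block) and 53 were lower in transgenic than in non-transgenic lung (18 without it). With both arrays numbered 4 left out, whose Xist signals differ, the block kept the 3 calls it had added against transgenic lung, an alternative chosen after seeing the data. The block changed no other call of a member than those given here and with the results. The Xist covariate gave 4 lower and 106 higher between transgenic and non-transgenic lung, and the actin ratio 72 and 434. Leaving out single arrays gave 4 to 25 lower and 112 to 266 higher there (18 and 254 with all arrays). The causes were not tested. Against non-transgenic lung, Hbb was also called with equal total signal (adjusted p = 0.0322), Xist (0.0477) and the actin ratio (0.0396).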
